A study of Mus musculus with 8 samples.

Results

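The genes studied here encode subunits of the nuclear RNA polymerases I, II and III, and the measurement is the presence of acetylated histone H3 lysine 9 (H3K9ac) at their ends in mouse cerebellum. Members were all protein-coding RefSeq genes of GRCm38 (mm10) whose symbol begins with Polr1, Polr2 or Polr3, which gave 28 of 21883 genes: 5 named for polymerase I, 13 for polymerase II and 10 for polymerase III. The libraries came from cerebellum of C57BL/6 mice aged 9 weeks and were made by chromatin immunoprecipitation and sequencing (ChIP-seq) with an antibody to H3K9ac. In 4 libraries the mice were heterozygous for a knock-in allele labelled 266Q, an expanded glutamine tract in ataxin-7 that models spinocerebellar ataxia type 7 (SCA7). The other 4 libraries came from wild type littermates, and nothing in the labels says whether the 4 of a genotype were separate animals. By genotype and replicate number the libraries are called KI1 to KI4 and WT1 to WT4. Cerebellum is a mixed tissue of neurons and glia, and a peak list does not say which cells carried the mark. The series asks how this mark differs at a symptomatic stage.

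Each polymerase transcribes its own class of genes. Polymerase I makes the large ribosomal RNA precursor, polymerase II makes messenger RNA, and polymerase III makes transfer RNA, the small ribosomal RNA 5S and other short RNAs. All 3 enzymes are built on a pair of large catalytic subunits, and several small subunits are shared between them. Subunit genes are themselves transcribed by polymerase II, and H3K9ac is a mark found at the active promoters of such genes. Ataxin-7 belongs to SAGA, a coactivator complex that acetylates histone H3.

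A gene counted as detected in a library when a peak of that library's deposited list overlapped the stretch from 1 kb before to 1 kb after either end of the gene. The lists were of unequal length: 7735 to 11409 peaks with a median width of 1065 to 1246 bp in replicates 1 and 2 (KI1, KI2, WT1 and WT2, the long lists), and 1266 to 5571 peaks with a median width of 132 to 148 bp in replicates 3 and 4 (the short lists). Read depth is unknown, so a missing mark and a shallow library cannot be told apart. As a check of the tissue, 8 to 10 of 10 granule cell markers had a peak in the 4 lists of replicates 1 and 2. The counts were 2 to 5 of 10 for Purkinje cell markers and 1 to 2 of 10 for liver and muscle genes. In these lists 27.8% to 39.1% of all genes had a peak. The Purkinje cell markers lay around that share, so only the granule cell markers stood clearly above it. Polr3gl was singled out beforehand because its peaks were uneven between the genotypes in these same files. Its counts are therefore given as a description, without a test.

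Most subunit genes carried H3K9ac in at least 1 library, and almost all of that detection came from the long lists. A peak was found at 21 of 28 subunit genes in at least 1 library, where 45% of all protein-coding genes had one. All of these 21 had a peak in a list of replicates 1 and 2. KI1 had a peak at 16 members (39.1% of all genes had one), KI2 at 16 (36.2% of all genes), WT1 at 17 (31.9%) and WT2 at 10 (27.8%). KI3 and KI4 had 2 and 0 (10.4% and 0.891% of all genes), and WT3 and WT4 had 4 and 1 (5.43% and 1.46%). The median member was in 2 libraries, and the median of all protein-coding genes was 0. In all 4 lists of replicates 1 and 2 there were 7 members, or 25.0%, close to the 22.9% of all genes. The members' share thus lay above that of all genes for any peak and near it for a peak in every long list, a description for which no test was made.

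**Figure D1:**
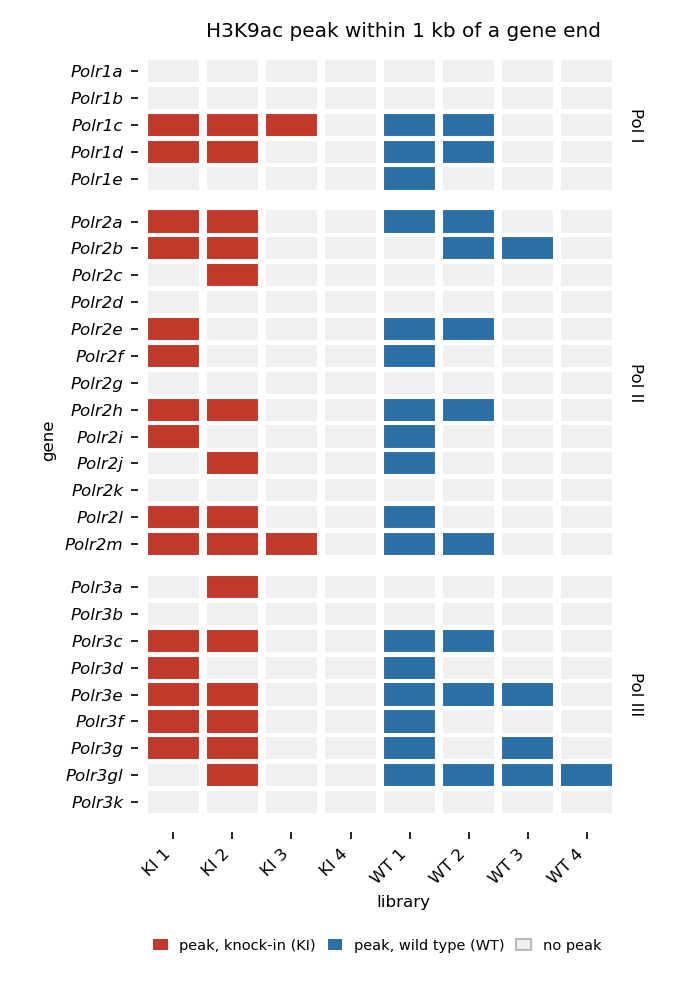
Each row is 1 of 27 subunit genes, grouped by polymerase, and each column a library; a filled square marks a peak within 1 kb of a gene end in knock-in (KI, red) or wild type (WT, blue), and grey marks none. The rows of Polr1a, Polr1b, Polr2d, Polr2g, Polr2k, Polr3b and Polr3k are empty, and Polr3gl is filled in 1 knock-in and 4 wild type columns.

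The polymerases did not stand in 1 order across the 8 lists. In KI1 a peak was found at 2 of 5 polymerase I genes, 8 of 13 polymerase II genes and 6 of 10 polymerase III genes. The counts were 2, 7 and 7 in KI2, 3, 8 and 6 in WT1, and 2, 5 and 3 in WT2. Polymerase III was therefore highest as a share in KI2 and lowest in WT2. In KI3 the counts were 1, 1 and 0, and in WT3 they were 0, 1 and 3. KI4 had none, and the 1 member in WT4 was Polr3gl. Over the 8 libraries the mean share was 25.0 ± 23.3% (SD, n = 8) for polymerase I, 28.8 ± 27.8% (SD, n = 8) for polymerase II and 32.5 ± 28.2% (SD, n = 8) for polymerase III, against 19.1 ± 16.2% (SD, n = 8) for all protein-coding genes. Without Polr3gl the mean for polymerase III was 29.2%. These SDs mostly hold the gap between long and short lists, which the 3 polymerases share. Over all subunit genes the mean share was 52.7% in replicates 1 and 2 and 6.25% in replicates 3 and 4. The SDs therefore do not gauge the gaps between the polymerases, which were not tested.

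Counting the shared subunits in every enzyme that holds them changed the shares little. Polr1c and Polr1d belong to polymerases I and III, and Polr2e, Polr2f, Polr2h, Polr2k and Polr2l to all 3. With these added, polymerase I had 10 genes and a mean share of 27.5%, and polymerase III had 17 genes and a mean share of 34.6%. Only genes that met the symbol rule were counted, so a subunit under another symbol would be left out.

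**Figure D2:**
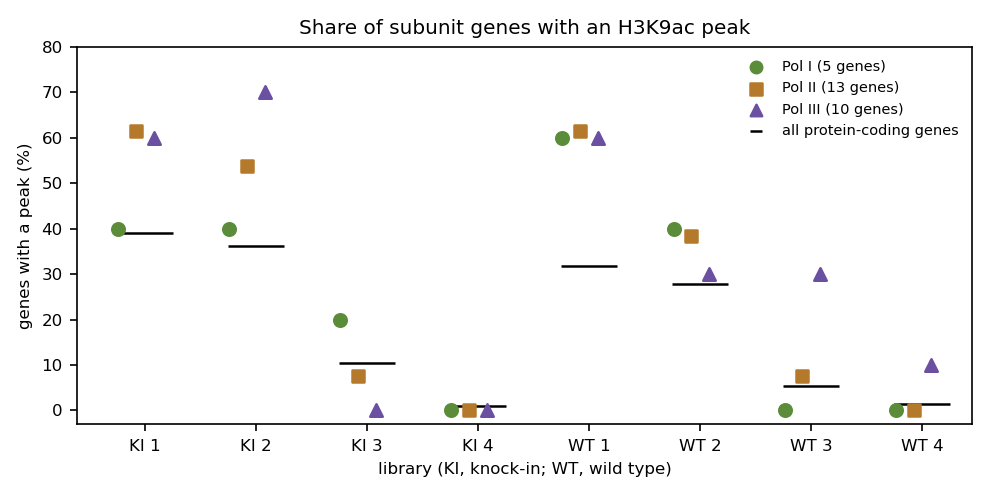
Points give the percent of polymerase I, II and III subunit genes with an H3K9ac peak in each library, and the black bars the percent of all protein-coding genes. In the 4 lists of replicates 1 and 2 the points lie between 30% and 70%, and in replicates 3 and 4 between 0% and 30%.

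None of the subunit genes tested was called between the genotypes. The test was a conditional exact test that holds a gene's total of detecting libraries fixed and allows for how readily each library detects any gene. Of the 27 members other than Polr3gl, 20 could be tested and 0 passed a Benjamini-Hochberg adjusted p of 0.05 over 9822 tested genes, of which 0% passed. Among those 20, 0 had an unadjusted exact p under 0.05 (0.916% of all tested genes did). Fisher's exact test also called 0, but its smallest p for any gene in these lists was 0.143, so it could call none. Among these 27 members, detection leaned to knock-in at 7 (21.6% of all genes) and to wild type at 3 (5.23% of all genes). Those shares of all genes include genes with no peak, which cannot lean either way. Of the 20 members with any peak, 7 leaned to knock-in, 3 to wild type and 10 to neither. Of 9847 genes with any peak, 4723 leaned to knock-in, 1144 to wild type and 3980 to neither. On that base a knock-in lean was less frequent in the members than in all genes, a description without a test. The smallest unadjusted exact p among the 27 members was 0.195, at Polr2e. For some of the 20 the outcome was fixed in advance. Polr1e, Polr2c and Polr3a had a peak in 1 library each, where no conditional exact p below 0.198 was possible. Members in few libraries thus had little or no room for a call, and their lack of one says nothing about the genotypes. With 8 lists of such unequal length, these 0 calls do not show that detection was equal.

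Because Polr3gl was chosen for its difference between the genotypes, the share of members with a peak is compared over the 27 others. It was 30.6 ± 31.2% in the 4 KI libraries and 25.9 ± 26.2% in the 4 WT libraries (SD, n = 4 each), a difference of 4.63 percentage points. These SDs mostly hold the gap between long and short lists within each genotype. They therefore do not gauge the difference, which was not tested. Over all protein-coding genes the difference was 5.03 points. Within replicates 1 and 2 the 27 members had means of 57.4% and 46.3%, a difference of 11.1 points, and all genes had 37.7% and 29.8%, a difference of 7.86 points. Within replicates 3 and 4 the difference was -1.85 points, from 2 detections in KI3 and KI4 and 3 in WT3 and WT4, against 2.20 points over all genes. With Polr3gl included, the differences were 1.79 points over all libraries, 8.93 within replicates 1 and 2 and -5.36 within replicates 3 and 4.

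The largest subunits, which form the catalytic centre together with the second largest, were detected unevenly. Polr2a, the largest subunit of polymerase II with its long repeated tail (chromosome 11, 69733997 to 69758633), had a peak in every long list and in no short list. Those 4 peaks were weak within their lists, with a median score percentile of 32.1 and a range of 2.31 to 45.6. Polr2b, the second largest (chromosome 5, 77310484 to 77349328), had one in KI1, KI2, WT2 and WT3. In WT1 the nearest peak to an end of Polr2b was 43566 bp away. The peaks of Polr2b also reached the window of Noa1, whose end lies within 1 kb.

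The catalytic pairs of the other polymerases had few peaks or none. Polr1a (chromosome 6, 71909053 to 71979435) and Polr1b (chromosome 2, 129100970 to 129128060), the largest and second largest subunits of polymerase I, had no peak in any library. The nearest peak was 17366 bp from Polr1a, in WT1, and 1731 bp from Polr1b, in KI1. Polr3b, the second largest subunit of polymerase III (chromosome 10, 84622292 to 84727178), also had none, and its nearest peak was 12572 bp away. Polr3a, the largest (chromosome 14, 24448694 to 24487070), had a peak of 964 bp in KI2 alone, at score percentile 10.6. In WT1 the nearest peak to Polr3a was 3562 bp away.

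Of the subunits shared by polymerases I and III, both were detected in every long list. Polr1c (chromosome 17, 46243920 to 46248045) had peaks 987 and 1122 bp wide in KI1 and KI2, 1634 and 855 bp wide in WT1 and WT2, and 146 bp wide in KI3. Each of these peaks also reached the window of Yipf3. Polr1d (chromosome 5, 147076715 to 147111361) had a single peak of 2200 bp in KI2 and a pair of peaks in each of the other long lists. In KI1 that pair was 1810 and 854 bp wide. Polr1e, a polymerase I subunit that is not shared, had a peak in WT1 only, at score percentile 4.94 (conditional exact p 0.198, adjusted p 1).

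The 5 subunits common to all polymerases ranged from no peak to a peak in every long list. Polr2h (chromosome 16, 20717826 to 20722272) was in all 4 long lists, but its peaks only touched the edge of the window. They overlapped it by 18 and 366 bp in KI1 and KI2 and by 151 and 54 bp in WT1 and WT2, and lay toward the neighbouring gene Clcn2. At its own start site, no long list had a peak closer than 635 bp. Polr2l (chromosome 7, 141471860 to 141475153) was in KI1, KI2 and WT1, with peaks of 1934, 1649 and 2179 bp. Polr2e (chromosome 10, 80035953 to 80039659) was in KI1, WT1 and WT2 (conditional exact p 0.195, adjusted p 1). Polr2f was in replicate 1 of both genotypes, and Polr2k in none.

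The remaining polymerase II genes were led by Polr2m, which encodes a protein that associates with the finished enzyme. Polr2m (chromosome 9, 71478437 to 71485983) was in KI1, KI2, KI3, WT1 and WT2. Its peaks stood high in the long lists, at score percentiles of 68.5 and 78.8 in KI1 and KI2 and 82.3 and 81.1 in wild type. None of them reached the window of another protein-coding gene. Polr2i and Polr2j, small subunits of the enzyme body, were in 1 library of each genotype, and Polr2c in KI2 alone. Polr2d and Polr2g, which form the stalk of polymerase II, had no peak, and their nearest peaks were 6378 and 6834 bp away.

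The polymerase III genes outside the catalytic pair include initiation and termination subunits. Polr3c, Polr3f and either Polr3g or Polr3gl make up a trimer needed to start transcription. Polr3c (chromosome 3, 96711520 to 96727498) was in all 4 long lists, with peaks of 1498 and 1637 bp in KI1 and KI2 and 1142 and 942 bp in WT1 and WT2 that also reached the window of Rnf115. Polr3f was in 3 of the 4, missing from WT2. Polr3d and Polr3e pair in a subcomplex that acts in initiation and termination: Polr3d was in replicate 1 of both genotypes, and Polr3e in all long lists and in WT3. Polr3k, a small subunit with a role in RNA cleavage, had no peak within 25709 bp.

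Polr3e had the highest median score percentile of the members over the long lists. The score percentile was 87.9 and 87.7 in KI1 and KI2 and 83.2 and 79.4 in WT1 and WT2. The gene (chromosome 7, 120917778 to 120947435) was also in WT3, with a peak of 159 bp that lay 133 to 291 bp downstream of the start. The conditional exact test gave p = 0.223, and p = 1 after adjustment. Its promoter is shown because it holds a template of the enzyme that the gene encodes: the transfer RNA gene n-TLaag4, at 120917517 to 120917598, ends 180 bp before Polr3e begins. A transfer RNA gene lay within 1 kb of an end in 1 of 28 members and in 42 of 21883 protein-coding genes (0.192%). The peaks of 2 libraries, KI2 and WT2, overlapped that transfer RNA gene. The 250 bases upstream of the start, chr7:120917528-120917777 on the plus strand, are given with the transfer RNA bases in capitals, from RefSeq on GRCm38.p6.

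Polr3e: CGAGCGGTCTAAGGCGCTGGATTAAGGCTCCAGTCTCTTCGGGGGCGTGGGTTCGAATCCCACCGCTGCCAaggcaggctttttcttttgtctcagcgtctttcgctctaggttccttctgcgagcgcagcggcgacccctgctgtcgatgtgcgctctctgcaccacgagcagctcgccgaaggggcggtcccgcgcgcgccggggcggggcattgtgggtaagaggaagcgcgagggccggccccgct

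Polr3gl, the paralog of Polr3g, had a peak at its start in every wild type library and in 1 knock-in library. The gene spans 96577872 to 96594181 on chromosome 3 and is read from the minus strand, so its start is the higher coordinate. The peaks were 1466 bp (96594038 to 96595503), 1446 bp (96593915 to 96595360), 154 bp (96594559 to 96594712) and 134 bp (96594546 to 96594679) in WT1 to WT4, and 675 bp (96594279 to 96594953) in KI2. The peaks of WT1 and WT2 covered the start site, and the other 3 lay upstream of it. Those of KI2, WT1 and WT2 also reached the window of Ankrd34a, the next gene upstream. All 5 shared a stretch of 121 bp, from 378 to 498 bp upstream of the start. Score percentiles were 81.0, 49.6, 63.4 and 5.57 in WT1 to WT4 and 38.6 in KI2. Of 21883 genes, 1 had a peak in 1 KI and 4 WT libraries, namely Polr3gl, and 171 had one in all 4 WT libraries. At least 2 more wild type than knock-in libraries had a peak at 66 genes (0.302%). Nothing is read from any of these counts, that of 1 gene included, because Polr3gl was chosen for this pattern.

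Out to 5 kb from Polr3gl, KI1 lacked the peak at the start but had one farther upstream. KI1 had 1 peak of 2985 bp (96595923 to 96598907) that began 1742 bp upstream of the start, 742 bp outside the window. It lay over Ankrd34a (96595928 to 96600126). KI2 had 3 further peaks, the nearest from 1230 to 3157 bp upstream. WT1 had 1 further peak, 2310 to 3831 bp upstream, and WT2 had 2, the nearer from 2285 to 4127 bp. In the 4 long lists the mark over Ankrd34a was thus present in both genotypes, and Ankrd34a itself was counted in 2 libraries of each.

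KI3 and KI4 had no peak within 5 kb of Polr3gl, and their nearest peaks were 472776 and 918711 bp away. With windows of 2, 3 or 5 kb the count became 2 knock-in and 4 wild type libraries, and with 500 bp it stayed at 1 and 4. With the windows of 2 kb or more, the difference that remained was between replicates 3 and 4 of the genotypes. There KI3 and KI4 held a peak at 2273 and 195 of all genes, and WT3 and WT4 at 1188 and 319. Whether the length of these lists bears on the pattern at Polr3gl was not tested.

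**Figure D3:**
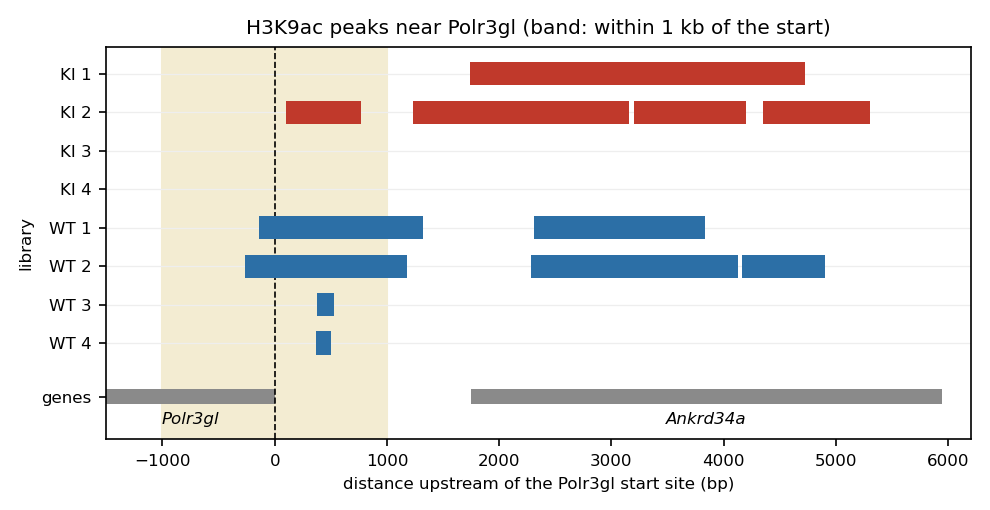
Bars mark the peaks of each library (KI, red, knock-in; WT, blue, wild type) by distance upstream of the Polr3gl start site in bp, with the genes below in grey and a shaded band within 1 kb of the start. The 4 wild type libraries and KI2 have a peak in the band, and the peak of KI1 begins at 1742 bp.

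Polr3g, the other form of this subunit, was even between the genotypes. The gene (chromosome 13, 81673837 to 81711013, minus strand) had peaks of 1223 and 2198 bp in KI1 and KI2, 1330 bp in WT1 and 152 bp in WT3. It had none in WT2, where the nearest peak was 15383 bp away. These peaks also reached the window of Mblac2. Both members of the pair were therefore detected in WT3, a list with a peak at 5.43% of all genes.

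The promoters of the pair are shown because these genes encode alternative forms of 1 subunit. Each is the 250 bases upstream of the annotated start in the RefSeq table of GRCm38.p6, minus strand, at chr3:96594182-96594431 for Polr3gl and chr13:81711014-81711263 for Polr3g. Capitals mark matches to the short strings searched, given with their counts further on.
Polr3gl: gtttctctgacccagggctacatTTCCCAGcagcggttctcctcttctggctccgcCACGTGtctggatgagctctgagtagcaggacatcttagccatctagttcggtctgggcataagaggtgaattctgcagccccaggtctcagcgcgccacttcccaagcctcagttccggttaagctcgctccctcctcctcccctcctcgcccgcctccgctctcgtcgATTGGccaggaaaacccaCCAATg
Polr3g: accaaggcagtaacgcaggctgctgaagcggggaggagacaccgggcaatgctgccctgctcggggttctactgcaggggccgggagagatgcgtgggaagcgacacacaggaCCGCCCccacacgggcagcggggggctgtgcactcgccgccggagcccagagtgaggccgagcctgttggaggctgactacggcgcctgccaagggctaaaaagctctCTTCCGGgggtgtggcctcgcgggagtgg
The peaks of WT1 and WT2 span the whole of the Polr3gl stretch, and that of KI2 (96594279 to 96594953) covers its upstream part. The narrow peaks of WT3 and WT4 lie upstream of it. The Polr3gl stretch was 59.2% G or C with an observed to expected CpG ratio of 0.627, and the Polr3g stretch was 68.4% G or C with a ratio of 0.666.

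Where the start site was known, the centre of every peak at a member lay nearer the start of the gene than its far end. At Polr2i (30232074 to 30233387) the ends are so close that its peaks fell in the windows of both. The KI1 peak there (30232258 to 30233202) lay almost midway between them. A start was given for 22 of 28 members. Among those not matched were Polr2d, Polr2g, Polr2k, Polr3a and Polr3d. Of 57 peaks at 18 members in the lists of replicates 1 and 2, 57 lay nearer the start than the far end and 43 covered the start itself. Their centres ranged from -1747 bp (upstream) to 656 bp (downstream), with a median of -43 bp. The 7 peaks of replicates 3 and 4 also lay at the start end, but 0 covered the start, and they were 134 to 169 bp wide. Their centres lay from -703.5 bp (upstream) to 345 bp (downstream). The median width in the long lists was 1148 bp for 33 knock-in peaks and 1074 bp for 29 wild type peaks.

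**Figure D4:**
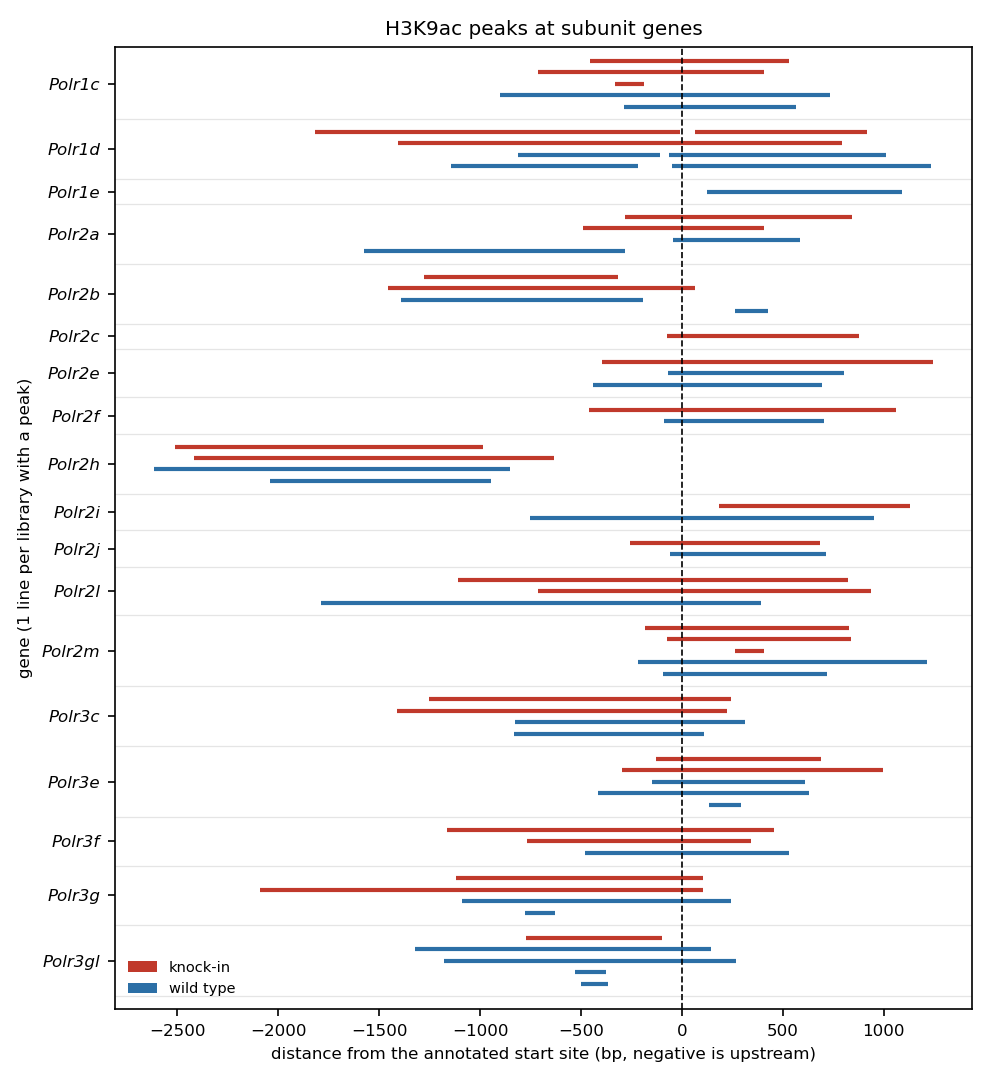
Each line is the span of 1 peak relative to the annotated start site of the member (bp, negative is upstream), with 1 row per library that has a peak, in red for knock-in and blue for wild type. Peaks of Polr2e and Polr3e cross the start in the long lists, those of Polr2h lie wholly upstream of it, and the short lines are those of replicates 3 and 4.

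Many of these peaks could belong to a neighbour as well. Of 62 peaks at 21 members in the long lists, 41 also overlapped the 1 kb window of another protein-coding gene, which involved 12 members. For 16 of 28 members another gene's end lay within 1 kb of an end. The peak of such a member cannot be assigned to 1 gene of the pair by position alone.

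Members were ranked by the score of their peaks within each long list, a value that describes the authors' own ordering of peaks. Of the 7 members in all 4 lists, Polr3e had the highest median percentile at 85.4, followed by Polr2m at 79.9, Polr2h at 69.7, Polr3c at 59.5, Polr1c at 54.3, Polr1d at 40.8 and Polr2a at 32.1. The ranges of neighbours in this order overlapped. Over all members the median percentile was 52.7 in KI1, 53.3 in KI2, 45.6 in WT1 and 49.6 in WT2. Subunit genes were thus near the middle of each long list.

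Base composition went with detection, as it did over all genes. Members with a peak in at least 4 libraries had a median of 64.6% G or C over 10 promoters, those with a peak in 1 to 3 libraries 61.8% over 8, and those with none 48.6% over 4. Over all 17491 protein-coding genes with a promoter in the table the medians were 64.8%, 59.2% and 49.6%. The observed to expected CpG ratio was 0.889, 0.872 and 0.683 in the members and 0.807, 0.730 and 0.261 in all genes. The genes compared differ in detection by construction, and no test was made.

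Promoters of members with a peak in 5 libraries and of members with none are set side by side to show this range. Polr2m (chr9:71485984-71486233, minus strand) and Polr1c (chr17:46248046-46248295, minus strand) had a peak in 5, and Polr3b (chr10:84622048-84622297, plus strand) and Polr1b (chr2:129100746-129100995, plus strand) in none. Capitals mark the strings searched.
Polr2m: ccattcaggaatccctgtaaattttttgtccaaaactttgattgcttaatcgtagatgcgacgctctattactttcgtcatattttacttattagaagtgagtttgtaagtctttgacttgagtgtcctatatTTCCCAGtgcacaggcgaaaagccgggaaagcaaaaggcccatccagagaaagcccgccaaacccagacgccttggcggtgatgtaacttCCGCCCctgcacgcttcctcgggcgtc
Polr1c: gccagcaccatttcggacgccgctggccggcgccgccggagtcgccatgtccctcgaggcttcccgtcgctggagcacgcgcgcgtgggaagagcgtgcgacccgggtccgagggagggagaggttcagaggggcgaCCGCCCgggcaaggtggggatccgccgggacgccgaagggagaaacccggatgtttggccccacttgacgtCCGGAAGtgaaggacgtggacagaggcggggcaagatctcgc
Polr3b: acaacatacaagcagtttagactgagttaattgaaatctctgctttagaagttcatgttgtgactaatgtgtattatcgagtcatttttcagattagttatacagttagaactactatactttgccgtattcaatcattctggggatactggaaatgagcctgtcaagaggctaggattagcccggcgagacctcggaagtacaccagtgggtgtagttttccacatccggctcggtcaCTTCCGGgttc
Polr1b: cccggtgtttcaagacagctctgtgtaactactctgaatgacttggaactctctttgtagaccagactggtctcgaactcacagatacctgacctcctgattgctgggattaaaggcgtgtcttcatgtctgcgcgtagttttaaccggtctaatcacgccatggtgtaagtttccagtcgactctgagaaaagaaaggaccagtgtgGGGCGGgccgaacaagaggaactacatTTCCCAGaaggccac
The G or C content was 46.8% for Polr2m, 70.4% for Polr1c, 42.4% for Polr3b and 49.6% for Polr1b. Polr2m was thus detected in 5 libraries with a G or C content below that of Polr1b, which was detected in none.

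Strings were searched on both strands of the 250 upstream bases, and none of them contains another. The GC box GGGCGG was in 14 of 22 members (63.6%) and 42.7% of all promoters. TTCCCAG, the core of the element bound by ZNF143, was in 6 members (27.3%), namely Polr1b, Polr1d, Polr2e, Polr2m, Polr3gl and Polr3k, and in 8.92% of all promoters. The ETS core CCGGAAG was in 5 members (22.7%) and 9.12% of all, and the NRF1 core GCGCATG in 3 members (13.6%) and 4.00% of all. The CCAAT box was in 6 members (27.3%) and 36.3% of all, the E-box CACGTG in 2 (9.09%) and 6.64%, the TATA box TATAAA in 2 (9.09%) and 12.4%, and the YY1 core GATGGCG in 0 and 2.53%. Holders of TTCCCAG ranged from a peak in 5 libraries, at Polr2m and Polr3gl, to none, at Polr1b and Polr3k. These are matches of letters in 22 promoters and are not evidence of binding.

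Partner factors of the polymerases gave no call either. Of 55 genes listed for initiation, elongation, assembly and repression, 41 were detected in 1 or more libraries and 14 in none. The conditional exact test passed 0 of these 41 after adjustment, and 0 had an unadjusted p under 0.05. A gene with a peak in 1 library could get no conditional exact p below 0.198. For a gene in 2 knock-in and 0 wild type libraries it was 0.501. Such genes could not be called, so their lack of a call says nothing about the genotypes. Fisher's exact test passed 0, where it could pass none, its smallest p here being 0.429. More knock-in than wild type libraries had a peak at 25 of the 55 (45.5%, against 21.6% of all genes), and more wild type libraries at 3 (5.45%, against 5.23%). Among the subunit genes the same counts were 7 of 28 (25.0%) and 4 of 28 (14.3%), the 4 including Polr3gl. These shares include genes with no peak, which cannot lean either way. Among genes with any peak, the counts were 25 and 3 of 41 partners and 7 and 4 of 21 subunit genes. Over all 9847 such genes they were 4723 and 1144.

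The partners of polymerase III were found mainly in the long lists. In KI1 and KI2 a peak was found at 12 and 10 of 18, and in WT1 and WT2 at 9 and 6. Gtf3c1, the largest subunit of the factor TFIIIC that binds transfer RNA genes, was in KI1, KI2, KI3 and WT1 (conditional exact p 0.0533, adjusted p 1). Snapc1, of the complex that recognises small nuclear RNA promoters, and Zfp143, the mouse counterpart of ZNF143, were each in 2 and 0 (conditional exact p 0.501, adjusted p 1). Brf1, a subunit of the initiation factor TFIIIB, was in the same 5 libraries as Polr3e. Maf1, a repressor of polymerase III, was in 2 and 1.

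The partners of polymerase II had a peak at 21 and 18 of 28 in KI1 and KI2 and at 14 and 9 in wild type. Gpn3, Gtf2e1 and Gtf2h2 were each in KI1 and KI2 alone (conditional exact p 0.501, adjusted p 1). Mnat1 tied with them and was chosen after its values were seen. Gtf2e1 encodes a subunit of the general factor TFIIE, Gtf2h2 and Mnat1 subunits of TFIIH, and Gpn3 a factor in polymerase assembly. The partners of polymerase I had 2 of 8 in KI1, KI2 and WT1 each and 0 in WT2, and none differed by 2 libraries. Ubtf, the architectural factor of ribosomal DNA, had no peak, while Rrn3, which recruits polymerase I, was in replicate 1 of both genotypes. Polrmt, the mitochondrial RNA polymerase, was in 1 library of each genotype.

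Other large complexes gave a wider gap between the long lists of the genotypes than the subunit genes did. Ribosomal protein genes had a peak at 56 and 52 of 84 in KI1 and KI2 and at 40 and 23 in wild type, a difference of 26.8 percentage points. Proteasome subunit genes had 24 and 18 of 39 against 14 and 13, a difference of 19.2 points. The difference was 11.1 points for the 27 polymerase subunit genes other than Polr3gl and 7.86 points for all protein-coding genes. With 2 libraries a genotype in these lists, the difference between the gene sets was not tested.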

How the data were processed

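H3K9ac ChIP-seq peak lists of 8 cerebellar libraries were used. Per the submitters' processing notes, Bowtie2 and build mm10 were used. Per the file headers, peaks were called with MACS in Galaxy, 1 list per library. MACS version, settings and input control were not given in the sources used here. Each peak's deposited score, the authors' own value, has no stated scale and served to rank a list's own peaks. Read depth is unknown. Starts below 0 (15 of 52676 peaks) were set to 0.

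Gene ends came from RefSeq (GRCm38.p6). The conditional exact test took library detection odds from a Rasch model fitted over genes held by 1 to 7 libraries, was two-sided, and was adjusted over all of them. It was tried on lists simulated from this same model, with planted genes present in every library of 1 genotype and absent from the other. Smaller differences, and lists that depart from the model, were not tried. Python 3.11.15, numpy 2.4.6 and scipy 1.17.1 were used. Members and gene lists were chosen with earlier results of these data known. Named were the catalytic and shared subunits, Polr3g and Polr3gl, members in 5 or more libraries or in none, members differing by 2 or more libraries (1 member is counted but not reported here), and up to 3 partner genes of each polymerase differing by at least 2; other genes were named after their values were seen. Motif strings and the ribosomal and proteasome sets were chosen after the files were seen. Alternatives were other windows, start sites only, peak centres, score cuts, Fisher's exact test, a replicate block and leaving out each library. The conditional exact p-values take the fitted detection odds as known and a gene's detections as independent between libraries. They do not measure the spread between libraries of a genotype, and differences between libraries may be technical.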

Additional observations from a re-analysis of the deposited data

How the results depend on the processing

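With each of the 17 alternatives that gave a count, 0 subunit genes and 0 partner genes passed. For Fisher's exact test this says nothing about stability, since its smallest p for any gene was 0.143, and with lists of equal length only 2 members had a peak, each in 1 library. Over all genes 1 passed without wild type replicate 2, and it was no member or partner. With lists of equal length, 1266 peaks each, the mean share with a peak fell to 0% for polymerase I, 0% for polymerase II and 2.50% for polymerase III, where only Polr3e and Polr3gl remained, each in wild type replicate 3. The gap at Polr3gl, -75 points as the percent of libraries with a peak, became -25 there. Leaving out 1 library moved the difference in the share of members, knock-in minus wild type, between -7.14 and 12.5 percentage points, and between -4.94 and 15.7 with Polr3gl left out, an alternative chosen after seeing the data, so its sign changes with the libraries used. Over the 27 other members it was negative without knock-in replicate 1 (-4.94), knock-in replicate 2 (-3.70), wild type replicate 3 (-0.309) or wild type replicate 4 (-4.01). With start sites only, which were known for 22 members, the difference was -1.14 over those members and 2.38 without Polr3gl. Each of those 22 kept its main counts. The shift from the main value of 1.79 therefore came from the members left out. With equal lists the difference was -1.79 over all members and -0.926 without Polr3gl.

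The labels give both genotypes replicate numbers 1 to 4 without saying that a number marks a shared litter or batch. Deviations of same-numbered libraries correlated over genes at 0.0463, 0.112, 0.135 and 0.401, not all over 0.1, and knock-in replicate 1 did not correlate best with its own number. With the replicate number as a block, 0 subunit genes and 0 partner genes passed.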
